A study of Mus musculus with 12 samples.

Results

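A class of meiotic recombination hotspots was described from DMC1 single-stranded DNA sequencing of mouse testis. These autosomal hotspots were called in the Ankrd31 knockout list but not in the wild type list, and sat at an end of a protein-coding gene. The knockout list held 22034 hotspots and the wild type list 13480. Of the knockout hotspots, 20448 lay on the 19 autosomes, and 9688 of these did not overlap a wild type hotspot by even 1 bp. Among those, 4550 (47.0%, exact 95% interval 46.0 to 48.0) had their centre at most 1 kb from the start or 3′ end of a protein-coding RefSeq gene. These are called gene-end hotspots here, and the other 5138 knockout-only hotspots serve for comparison, with 10760 autosomal hotspots shared by both lists. They were chosen by their presence in the knockout list, their absence from the wild type list and their distance to a gene end, so these properties are not findings.

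The wild type animals were adult C57BL/6JCrl males and the knockout animals adult males carrying the Ankrd31 tm1Atot allele, of a background strain that the sources used here do not name. Whole testis was used, with 2 DMC1 samples per genotype out of 12 samples in the series, and 1 list was deposited per genotype. Neither list holds values per animal, so every genotype difference stands without a replicate check. As the knockout strain is not named, genotype and strain cannot be told apart. The sources used here do not say which samples went into each list. The hotspots of the knockout list held 4203380 signal reads and those of the wild type list 4376692, and 579722 of the former fell in gene-end hotspots, with a median of 101 reads each over a median background of 10. H3K4me3 chromatin immunoprecipitation and input samples of young mice were not analysed here. Gene expression is not measured by this assay, so the identity of the cells rests on the antibody target, a protein made in meiotic cells.

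Meiotic recombination starts from programmed double-strand breaks made by SPO11. DMC1 coats the single-stranded DNA at a resected break, and sequencing that DNA marks where breaks form. In mice the zinc finger protein PRDM9 binds its DNA motif, trimethylates histone H3 at lysine 4 and directs breaks to these sites, away from promoters. Without PRDM9, breaks fall on promoters and other places that carry the same mark for other reasons. ANKRD31 binds REC114, a partner of the break machinery on chromosome axes.

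Promoter sequences at some of the strongest gene-end hotspots are given as examples, which do not describe the class. The lines below give the 250 bases before the annotated start of 3 genes from their RefSeq promoters (GRCm38.p6). The start of each carried one of the strongest of these hotspots. Other strong hotspots at starts, such as those at Zfp78 (strength 668) and Zbtb20 (590), are not printed. The 3 genes are followed by the promoter of the strongest divergent pair of genes and, chosen after their values were seen, 2 genes with no knockout hotspot at an end. All run 5′ to 3′ along the strand of the gene, and capitals mark CpG dinucleotides.
Svip: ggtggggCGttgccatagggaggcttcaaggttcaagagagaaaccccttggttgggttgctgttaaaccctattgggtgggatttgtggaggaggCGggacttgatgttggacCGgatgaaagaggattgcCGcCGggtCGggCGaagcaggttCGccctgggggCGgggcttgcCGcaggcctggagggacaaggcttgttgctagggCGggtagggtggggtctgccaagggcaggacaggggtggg
Ahsa2: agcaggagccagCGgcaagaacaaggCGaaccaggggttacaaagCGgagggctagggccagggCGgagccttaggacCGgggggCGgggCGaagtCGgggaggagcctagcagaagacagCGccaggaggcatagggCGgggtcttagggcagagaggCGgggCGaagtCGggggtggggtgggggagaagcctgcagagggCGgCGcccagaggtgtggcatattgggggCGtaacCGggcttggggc
Steap1: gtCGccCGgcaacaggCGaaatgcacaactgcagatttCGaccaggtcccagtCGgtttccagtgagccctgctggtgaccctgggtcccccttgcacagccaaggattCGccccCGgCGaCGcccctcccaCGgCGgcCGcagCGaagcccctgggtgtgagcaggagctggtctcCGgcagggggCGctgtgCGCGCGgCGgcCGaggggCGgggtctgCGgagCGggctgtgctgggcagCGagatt
Slc25a40: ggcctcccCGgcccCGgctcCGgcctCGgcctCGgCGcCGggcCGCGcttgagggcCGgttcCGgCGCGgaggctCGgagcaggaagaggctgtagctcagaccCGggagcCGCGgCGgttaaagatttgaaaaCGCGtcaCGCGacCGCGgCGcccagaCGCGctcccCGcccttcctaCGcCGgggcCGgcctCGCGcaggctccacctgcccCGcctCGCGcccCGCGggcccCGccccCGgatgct
Alb: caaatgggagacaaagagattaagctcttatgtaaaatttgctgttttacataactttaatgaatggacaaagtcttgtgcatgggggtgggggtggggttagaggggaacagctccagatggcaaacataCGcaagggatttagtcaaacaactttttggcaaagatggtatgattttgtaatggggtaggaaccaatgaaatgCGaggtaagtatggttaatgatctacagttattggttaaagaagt
Prm1: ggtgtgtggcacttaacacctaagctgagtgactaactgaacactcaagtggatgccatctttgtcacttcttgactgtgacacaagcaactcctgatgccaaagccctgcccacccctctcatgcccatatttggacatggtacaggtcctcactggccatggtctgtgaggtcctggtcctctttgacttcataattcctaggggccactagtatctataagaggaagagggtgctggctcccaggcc
Svip (chr7:52006019-52006268, minus strand) encodes a small inhibitor of VCP in protein degradation, and its hotspot was the strongest of all gene-end hotspots, with a strength of 760. Ahsa2 (chr11:23498040-23498289, minus) is related to an HSP90 co-chaperone gene and had 659. Steap1 (chr5:5749318-5749567, minus), which encodes a membrane protein of the metalloreductase family, had 568. These 3 windows held 11, 17 and 24 CpGs at a GC content of 62.8%, 69.2% and 70.8%.

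Slc25a40 (chr5:8422588-8422837, plus) encodes a mitochondrial carrier, and Dbf4, the regulatory subunit of the CDC7 kinase that fires replication origins, starts 122 bp away on the other strand in the promoter table. The hotspot they share had a strength of 474. Its Slc25a40 window held 40 CpGs at 78% GC, and the Dbf4 window overlaps it by 121 bases. The promoter of the liver gene Alb (chr5:90460620-90460869, plus) held 2 CpGs at 39.2% GC, and that of the protamine gene Prm1 (chr16:10796824-10797073, minus) held 0 at 51.6%. These last genes were chosen for the contrast, so it supports nothing about hotspot promoters in general.

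Gene-end hotspots were weak to moderate sites. Strength is the number of signal reads in the interval minus a background estimate. Their strengths ran from 16 to 760 with a median of 90 (exact interval of the median 88 to 93) and quartiles of 62 and 141. Other knockout-only hotspots had a median of 64 (63 to 65), and shared hotspots had 151 (147 to 154) in the same list. The median gene-end hotspot was therefore 1.41-fold stronger than the median knockout-only hotspot elsewhere (log2 0.49), and the median shared hotspot was 1.68-fold stronger than it. These intervals cover the spread over hotspots of 1 list, not over animals. Shared hotspots had to be called in both lists and gene-end hotspots in the knockout list alone. How much of their difference in strength comes from this selection was not tested.

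**Figure D1:**
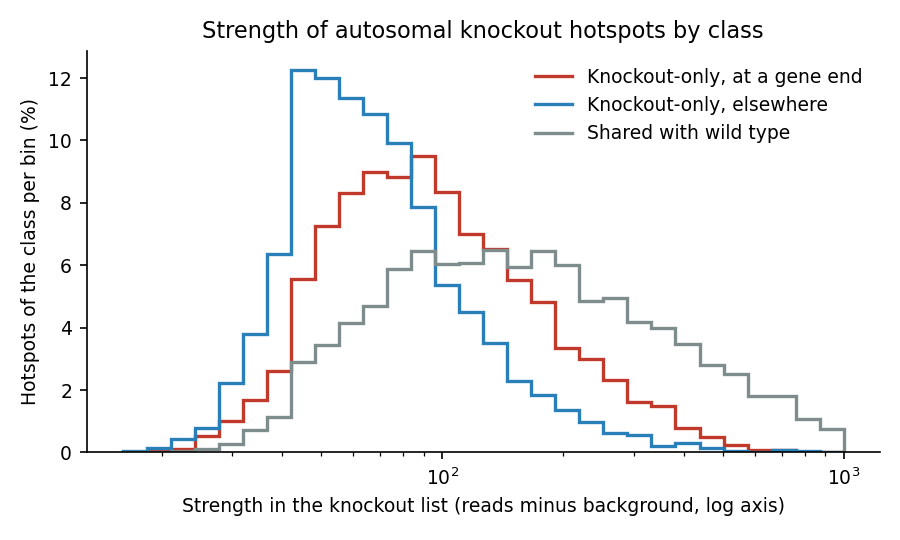
Distribution of strength (reads minus background, logarithmic axis) over autosomal hotspots of the knockout list, as percent of each class per bin. The gene-end hotspots (red, median 90) lie between the other knockout-only hotspots (blue, median 64) and the shared hotspots (grey, median 151), whose strongest members fall beyond the axis.

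The order of the 3 classes was the same on every chromosome. The median strength of gene-end hotspots exceeded that of other knockout-only hotspots on 19 of 19 autosomes and was below that of shared hotspots on 19 of 19. It was highest on chromosome 18 (128) and chromosome 3 (110). It was lowest on chromosome 11 (65) and chromosome 8 (78). Chromosome 11 also had the most gene-end hotspots (442), and the lowest median of other knockout-only hotspots (46). On chromosome 18 the other knockout-only hotspots had a median of 72.

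**Figure D2:**
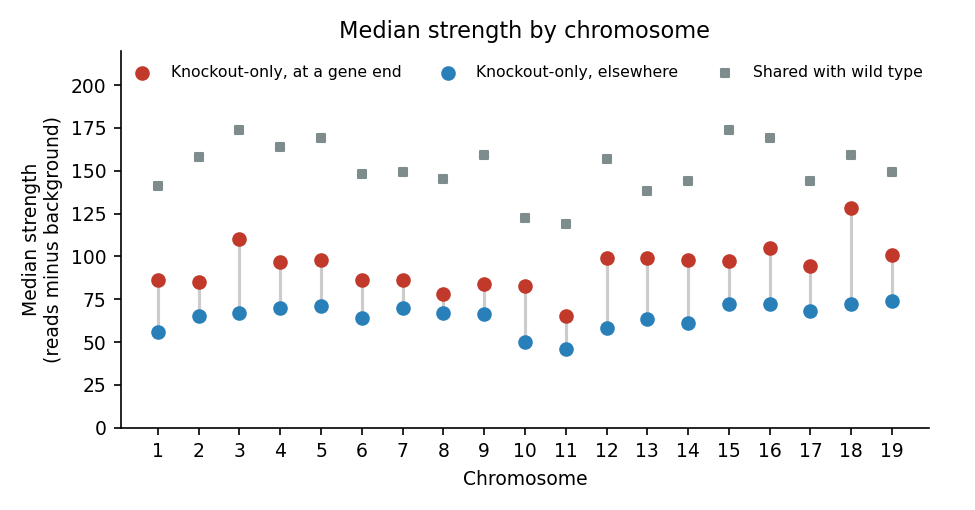
Median strength (reads minus background) on each autosome for gene-end hotspots (red), other knockout-only hotspots (blue) and shared hotspots (grey squares) of the knockout list. Red lies above blue and below grey on all 19 autosomes, with the lowest red value on chromosome 11 (65) and the highest on chromosome 18 (128).

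None of the gene-end hotspots reached the top of the list. Of the 100 strongest autosomal knockout hotspots 0 were gene-end hotspots, of the strongest 500 there were 4, of the strongest 1000 there were 19 and of the strongest 5000 there were 599. They made up 10.6% of the strongest 20% of autosomal knockout hotspots and 23.1% of the weakest 20%, against 22.3% of all. Together they held 15.9% of the summed strength of autosomal knockout hotspots over 8184 kb of covered sequence, while the other knockout-only hotspots held 12.5%. Their strength exceeded the median of the wild type list (152) in 983 of 4550 (21.6%, 20.4 to 22.8), against 399 of 5138 (7.77%, 7.05 to 8.53) of the other knockout-only hotspots.

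The strongest of them held several times the median number of reads where the wild type list has no hotspot. Svip led with 785 reads over a background of 25 (counting interval 731 to 842). Next came Fa2h on chromosome 8, which encodes a hydroxylase of sphingolipid fatty acids, with a strength of 710. Plag1 on chromosome 4, a zinc finger gene of growth control, shared its hotspot (692) with Chchd7, a mitochondrial protein gene. Zfp78 on chromosome 7 had 668, Ebag9 on chromosome 15 had 620, Zbtb20 on chromosome 16, which encodes a transcriptional repressor, had 590 and Tulp4 on chromosome 17 also had 590. The tenth, with a strength of 547, lay on chromosome 19, 422 bp upstream of the start of Lpxn, a focal adhesion adaptor gene that overlaps Zfp91 head to head. The nearest wild type hotspot was 8577 bp away for Steap1 and 170935 bp away for Zfp78, the extremes of these 10. The weakest hotspot of the wild type list had a strength of 18, and the wild type level at places with no called hotspot is not in the list. Fewer cells with breaks and less signal per cell cannot be told apart in either list.

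At the other end, the weakest gene-end hotspot lay at Klhl12, a ubiquitin ligase adaptor gene on chromosome 1, with 26 reads over a background of 10 and so a strength of 16, the last rank of the whole list. Among the 5 weakest were also Cldn7, a tight junction gene, with a strength of 21, and Dhx33 and Smyd2, both with 24. The counting interval of the reads at Klhl12 ran from 17.0 to 38.1. Hotspots of this size lie near the calling limit, and whether a wild type site of like strength would have been called was not tested.

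Gene-end hotspots were wider than the others. Their median width was 1742 bp (1732 to 1754), against 1540 bp (1530 to 1548) for other knockout-only and 1568 bp (1564 to 1570) for shared hotspots, and the median exceeded that of other knockout-only hotspots on 19 of 19 chromosomes. Width rose with strength, so bands of equal strength were compared. From a strength of 100 to under 150, the medians were 1843 bp at gene ends, 1692 bp at other knockout-only and 1548 bp at shared hotspots. From 50 to under 75 they were 1633, 1536 and 1472 bp, and from 250 to under 1000 they were 2013, 1844 and 1642 bp. The order was also the same below 50, where the medians were 1396, 1372 and 1350 bp.

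The widest gene-end hotspot spanned 4184 bp at the start of Sgms1, a sphingomyelin synthase gene on chromosome 19 (strength 240). The next lay in the histone cluster of chromosome 13, with 4108 bp at H4c18 and H2ac24 (strength 218) and 3958 bp at H4c17 and H2ac23 (192). Histone genes are near-identical copies, so the placing of reads there is uncertain. The narrowest were 854 bp at the 3′ end of the olfactory receptor gene Olfr774 (strength 51), 920 bp at Chac2, a glutathione-degrading enzyme gene (25), and 956 bp at Arl4d, a small GTPase gene (27).

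Which end of the gene was used could be read for most of them, and it was the start. The rule took either end of a gene without regard to strand, and the strand came from the RefSeq promoter table, which holds 16456 of 20661 autosomal protein-coding genes. The nearest end had a known strand for 3682 of the 4550 gene-end hotspots (80.9%). It was a start in 3592 (97.6%, 97.0 to 98.0) and a 3′ end in 90 (2.44%), although every gene has 1 of each. On each chromosome with known strands the share at starts was between 93.9% (chromosome 13) and 99.5% (chromosome 3). The remaining 868 could not be placed this way.

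Hotspots at gene ends that the wild type also has did not show this split. Among shared autosomal hotspots at gene ends, the nearest end was a start in 87 of 220 (39.5%, 33.0 to 46.3). Among all autosomal wild type hotspots at gene ends it was a start in 73 of 241 (30.3%, 24.6 to 36.5). The intervals of these shares lie far from that of the knockout-only hotspots. They describe hotspots of single lists, and no test over animals was possible.

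Counted over genes, 5129 of 20661 autosomal protein-coding genes (24.8%, 24.2 to 25.4) had a gene-end hotspot. Of the genes of known strand, 4044 of 16456 (24.6%) had one within 1 kb of the start and 200 (1.22%) within 1 kb of the 3′ end. Many of the latter were close to the start of a neighbour. Of the 12196 3′ ends with no start or other gene end of RefSeq within 2 kb, 57 (0.467%, 0.354 to 0.605) had one.

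The centres lay close to the start and mostly slightly inside the gene, where start means the outer RefSeq boundary of the gene. Of 16456 genes of known strand, 13555 (82.4%) had a promoter-table start within 250 bp of that boundary. Offsets from other annotated starts were not computed. The median centre was 100 bp downstream of the start (91 to 105), with quartiles 18 bp upstream and 234 bp downstream. It was downstream in 2550 of 3592 (71.0%, 69.5 to 72.5) and upstream in 1036. Within 100 bp of the start lay 1342 (37.4%), within 250 bp 2626 (73.1%) and within 500 bp 3312 (92.2%). The interval covered the start in 3554 of 3592 (98.9%).

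**Figure D3:**
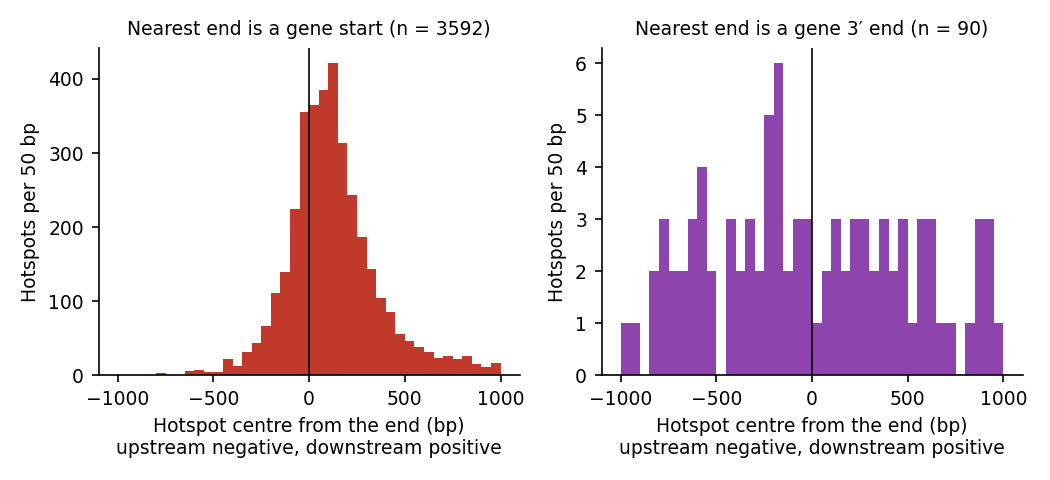
Distance of the hotspot centre from the nearest gene end (bp, negative upstream and positive downstream along the gene), counted per 50 bp, for 3592 gene-end hotspots nearest a start (left) and 90 nearest a 3′ end (right). Those at starts pile up just downstream of it (median 100 bp), while those at 3′ ends are spread over the whole window.

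The few hotspots at 3′ ends were spread over the window and weaker. Their median strength was 68.5 (61 to 80), against 89 (87 to 92) at starts. Their median distance to the end was 400.5 bp (316 to 537), against 141 bp (135 to 147), and 30 of 90 (33.3%) lay within 250 bp. A start of the promoter table lay within 1 kb of 23 of the 90. The strongest with a 3′ end alone within 1 kb was at Nr2f2, a nuclear receptor gene on chromosome 7, with a strength of 393, followed by Sec14l2 on chromosome 11, a lipid-binding protein gene, with 293. Next were Slc11a1, a metal transporter gene of macrophages on chromosome 1 (289), Cpeb3 (241), which encodes an RNA-binding regulator of translation, and Srgap1 (238), which encodes a GTPase-activating protein. The hotspot at Slc11a1 was centred 932 bp beyond its end.

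The 1 kb limit cut through few hotspots. Of the 4550, 3273 (71.9%) were centred within 250 bp of an end, 871 from there to 500 bp, 257 to 750 bp and 149 to 1000 bp, while 207 knockout-only hotspots lay from 1000 to 1500 bp. The last inside were at Nrip1 (993 bp, strength 117), Phldb3 (992 bp, 71) and Slc25a39 (990 bp, 152), and the first outside were near Atxn3 (1001 bp, 310), Sec24b (1001 bp, 95) and Lor (1003 bp, 121). All 6 were nearest a start except that near Lor.

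Many gene starts are paired, and 620 of the 4550 hotspots (13.6%, 12.6 to 14.7) had ends of 2 or more protein-coding genes within 1 kb. Of these 611 had 2 genes and 9 had 3 or more. The same share over all gene ends was not computed, so pairing is not called a trait of these hotspots. Among all 16456 starts of known strand, 1346 had a divergent protein-coding partner within 1 kb. The strands of both genes were known for 468, and in 237 of them (50.6%, 46.0 to 55.3) the starts pointed apart, as at divergent promoters. In 143 the starts faced each other and the genes overlapped head to head, in 75 a start met a 3′ end, in 11 the starts were on the same strand and in 2 there were 2 3′ ends.

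Hotspots at paired starts and hotspots with a single gene had like strengths, with overlapping intervals. The single-gene class also includes 3′ ends and genes of unknown strand. The median strength was 90 (81 to 99) for divergent starts, 93 (85 to 101) for head-to-head starts and 90 (88 to 93) for hotspots with a single gene. Start and 3′ end pairs had 78 (68 to 93). Width differed a little, with medians of 1802 bp (1770 to 1874) and 1820 bp (1754 to 1922) for the pairs of starts and 1738 bp (1724 to 1750) for single genes. Divergent starts were a median of 102 bp apart, and the hotspot centre lay between them in 65 of 237 (27.4%, 21.8 to 33.6), a median of 132 bp from the midpoint.

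The strongest divergent pair after Slc25a40 and Dbf4 was Ostf1 with Nmrk1, a nicotinamide riboside kinase gene, on chromosome 19 (strength 428). Bfsp1, a lens filament gene, and Dstn, which encodes the actin-severing protein destrin, shared a hotspot of 381 on chromosome 2. Aasdhppt, which encodes the phosphopantetheinyl transferase, and Kbtbd3 shared one of 356 on chromosome 9, and Sugct and Mplkip one of 351 on chromosome 13. Zfp654 and Cggbp1 on chromosome 16 shared a hotspot of 474, and their strands were not known.

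Seen from the genes, a divergent partner went along with more frequent use, but so did CpG content. A start with a divergent protein-coding partner within 1 kb had a gene-end hotspot in 605 of 1346 cases (44.9%, 42.3 to 47.7). With a noncoding partner alone it was 231 of 601 (38.4%, 34.5 to 42.5), and with neither partner it was 3208 of 14509 (22.1%, 21.4 to 22.8). Among starts in the upper 2 quintiles of CpG content, these shares were 47.9%, 53.7% and 46.9%. Ends of long noncoding RNA genes lay within 1 kb of 575 of 4550 gene-end hotspots (12.6%, 11.7 to 13.6). The same held for 437 of 5138 other knockout-only hotspots (8.51%, 7.76 to 9.30) and 235 of 10760 shared hotspots (2.18%, 1.92 to 2.48). The 575 had a median strength of 97 (90 to 103), against 89 (87 to 92) for the other gene-end hotspots.

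Both ends of a single gene were seldom used. Of the 5129 genes, 50 had 2 separate gene-end hotspots, 1 at each end, and none had more. For the 4 of known strand among the 5 with the largest summed strength, the start was the stronger end in 2. Zfp78, a zinc finger gene, had 668 at the start and 47 at the 3′ end, where Zfp28 also has an end. Cryzl1 on chromosome 16 had 248 at the start, shared with Itsn1, and 118 at the 3′ end, shared with Donson. Srgap1 had 184 at the start and 238 at the 3′ end, and Dhtkd1 on chromosome 2, a mitochondrial dehydrogenase gene, had 57 at the start and 298 near the 3′ end, 943 bp from it and also at an end of Sec61a2. Camk2g, a calcium-dependent kinase gene on chromosome 14 of unknown strand, had 290 and 128, the latter shared with Ndst2.

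CpG content differed between used and unused starts. A promoter of the table whose start lay within 250 bp of the gene start was found for 13555 genes, 3526 of them (26.0%) with a gene-end hotspot at the start. The ratio of observed to expected CpG over 300 bases, from 250 before the start to 50 from it on, had a median of 0.82 (0.81 to 0.83) at used starts. It was 0.37 (0.36 to 0.39) for the 9789 genes with no knockout hotspot at an end. The median GC content was 64% and 53%, and the median number of CpGs was 24 and 7.

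In the lowest quintile of promoters by this ratio, 19 of 2711 starts (0.701%, 0.422 to 1.09) had a gene-end hotspot. The share was 5.20% (4.40 to 6.10) in the next quintile, 29.3% in the middle quintile, 44.6% (42.7 to 46.5) in the fourth and 50.3% (48.4 to 52.2) in the highest. Strength followed less steeply, with medians of 65, 73, 79, 94 and 96. By GC content the shares rose from 2.95% to 52.7%, and the median strength was 81, 70, 76, 87 and 105. GC content can affect how well DNA is amplified and sequenced, and its part in these values was not tested.

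**Figure D4:**
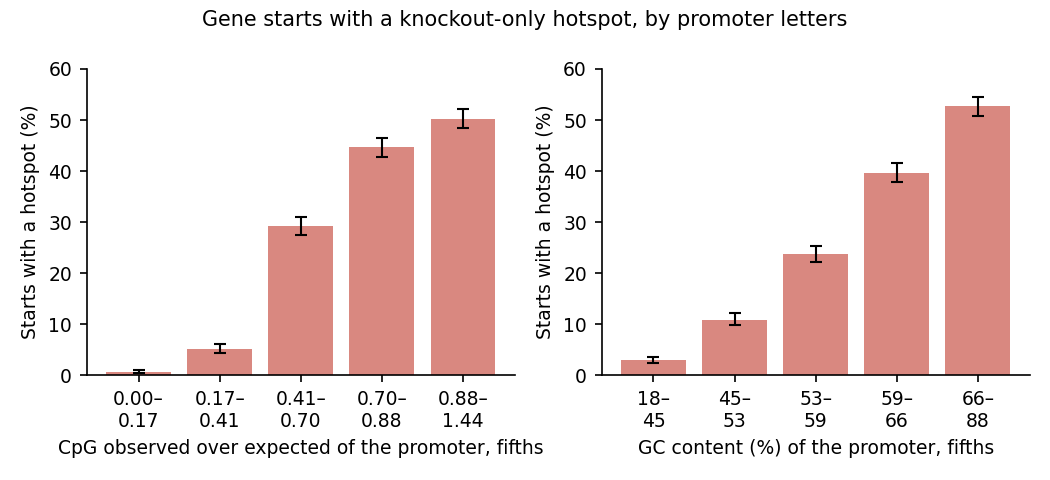
Percent of autosomal protein-coding starts with a gene-end hotspot within 1 kb, by quintiles of the promoter's observed over expected CpG ratio (left) and GC content (right), with 2711 starts per quintile and exact 95% intervals. The share rises from 0.701% to 50.3% with the CpG ratio and from 2.95% to 52.7% with GC content.

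Short motifs of common promoter factors were searched in the same 300 bases on both strands. The GC box GGGCGG, bound by SP and KLF factors, was present in 76.5% of used promoters, in 46.7% of all and in 35.9% of those with no knockout hotspot at an end. The E-box CACGTG was present in 13.6%, 8.14% and 6.12%, and the YY1 letters AAGATGGCG in 4%, 2.02% and 1.34%. The TATA letters TATAAA were present in 5.50%, 14.5% and 17.8%. The CCAAT box, bound by NF-Y, hardly differed, with 41.8%, 40.2% and 39.7%. Several of these motifs contain a CpG themselves, so they were also compared among the upper 2 quintiles of promoters by CpG ratio, where 47.5% of 5422 starts had a gene-end hotspot.

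Among these CpG-rich promoters the motifs differed in both directions. Only the CpG ratio was restricted here, and the part of GC content was not tested. Starts with CACGTG had a gene-end hotspot in 376 of 665 cases (56.5%, 52.7 to 60.3), against 46.2% without it. Those with GGGCGG had one in 50.4% (48.9 to 51.9), against 38.0% without, and those with CCAAT in 51.1% (49.0 to 53.3), against 45.2%. The ETS letters CCGGAAG went the other way, with 40.4% (37.6 to 43.2) against 49.5%. TATAAA gave 39.2% (33.7 to 45.0) against 47.9%, and ACTACAA, part of the ZNF143 site, gave 39.6% (33.3 to 46.1) against 47.8%. The palindromic NRF1 motif gave 39.9% (32.5 to 47.6) against 47.7%, just outside the interval. For MYB (AACNGTT, 53.2%), RFX (63.0% of 27 promoters), YY1 (53.0%) and the cAMP response letters TGACGTCA (49.4%) and TGACGTAA (60% of 65 promoters) the interval included the share without the motif.

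Long genes had gene-end hotspots more often than short ones. In the shortest quintile of genes (up to 4.39 kb) 377 of 4132 had one (9.12%), and in the longest quintile (from 57.9 kb) 1446 of 4133 (35.0%, 33.5 to 36.5). The quintiles between had 20%, 27% and 33.0%. Median strength was 83 in the shortest and 100 in the longest quintile. Gene length was not compared among promoters of like CpG content or without receptor genes, so its own part was not tested.

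Gene groups differed widely around the background of 24.8% of all autosomal protein-coding genes. Of 38 groups with genes in the table, the exact interval of the share lay above this background for 9, below it for 14 and included it for 15. No allowance was made for reading 38 intervals. The background includes 1104 olfactory and 354 vomeronasal receptor genes, which lower it, and the groups were not compared with a background without them. The intervals of the Tmem and meiotic prophase genes began just above it, at 25.3% and 25.7%. The 9 above it are given first, the meiotic prophase genes further down. Of 48 autosomal genes of general cell maintenance, 27 (56.2%, 41.2 to 70.5) had a gene-end hotspot, with a median strength of 96. Among the kinesin motor genes 20 of 37 (54.1%, 36.9 to 70.5) had one, led by the mitotic kinesin gene Kif20a (201) and the microtubule-depolymerising Kif2a (134). Among genes of ubiquitin-conjugating E2 enzymes it was 18 of 34 (52.9%), led by Ube2d3 (458) and Ube2w (260), and among ubiquitin-specific proteases 22 of 44 (50%, 34.6 to 65.4), led by Usp25 (333). Translation initiation factors had 24 of 53 (45.3%), DEAD and DEAH box RNA helicases 23 of 51 (45.1%) and Rab GTPases of vesicle traffic 23 of 55 (41.8%), with Rab28 at 374. The transmembrane protein genes named Tmem had 72 of 231 (31.2%, 25.3 to 37.6).

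The same groups were counted among the promoters of the upper 2 quintiles of CpG ratio, of which 47.5% had a gene-end hotspot at the start. There general cell maintenance genes had it in 18 of 29, kinesins in 12 of 20, E2 enzymes in 11 of 18 and ubiquitin-specific proteases in 9 of 16. Rab GTPases had it in 15 of 25, translation initiation factors in 17 of 35, DEAD and DEAH box helicases in 18 of 36, Tmem genes in 36 of 73 and meiotic prophase genes in 4 of 14. No interval was computed for these counts, so no group is called different from other CpG-rich promoters.

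**Figure D5:**
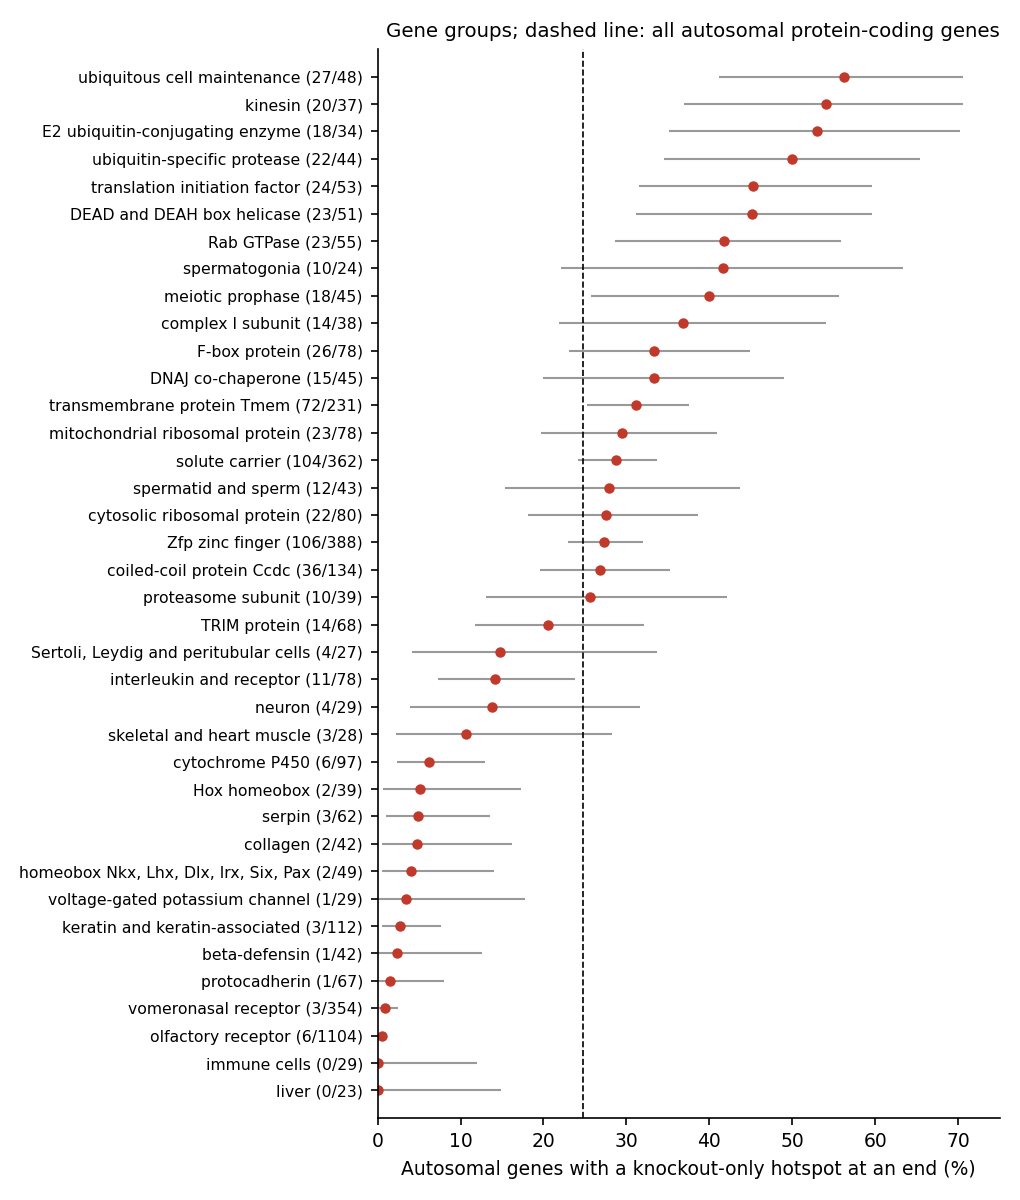
Percent of the autosomal genes of each group with a gene-end hotspot (points, with exact 95% intervals as bars and counts in the labels). The dashed line marks all autosomal protein-coding genes (24.8%). General cell maintenance (56.2%), kinesin (54.1%) and E2 enzyme genes (52.9%) lie at the top, and olfactory receptor (0.543%), immune cell (0%) and liver genes (0%) at the bottom.

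Several groups of cell machinery had intervals that included the background. Cytosolic ribosomal protein genes had 22 of 80 (27.5%, 18.1 to 38.6), mitochondrial ribosomal protein genes 23 of 78 (29.5%) and proteasome subunit genes 10 of 39 (25.6%). Complex I subunits of the respiratory chain had 14 of 38 (36.8%, 21.8 to 54.0). In these 4 groups the median strength was 70, 70, 72.5 and 66, below the median of 91 over all 5129 genes. Most of their promoters were CpG-rich. Of 39 cytosolic ribosomal protein promoters in the upper 2 quintiles of CpG ratio, 12 had a gene-end hotspot at the start. Of 41 mitochondrial ones it was 14, against 47.5% of all such promoters. No interval was computed for these counts or for the medians of strength, so no difference is called.

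Among germ line groups, genes of meiotic prophase had a gene-end hotspot in 18 of 45 (40%, 25.7 to 55.7), an interval just above the background that includes receptor genes. They were led by Sycp3, a gene of the chromosome axis (209), with Hfm1, a crossover helicase gene, at 166. Spermatogonial genes had it in 10 of 24 (41.7%, 22.1 to 63.4), led by Etv5, a transcription factor gene of stem cell self-renewal (382), Dazl, an RNA-binding protein gene of germ cells (357), and Foxo1 (181). Genes of spermatids and sperm had it in 12 of 43 (27.9%, 15.3 to 43.7), led by Crem, a switch gene of spermatid transcription (322). Genes of the somatic testis cells, Sertoli, Leydig and peritubular, had it in 4 of 27 (14.8%, 4.19 to 33.7), with Nr2f2 at its 3′ end (393) and Dhh (134) the strongest. The hotspot of Tcf21 (53) was also nearest a 3′ end. The intervals of these 4 groups overlap each other.

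Of the groups typical of other tissues, liver and immune cell genes had intervals below the background, and neuronal and muscle genes had intervals that included it. Of 23 liver genes 0 had a gene-end hotspot, which the exact interval limits to 14.8%, and of 29 immune cell genes also 0 (up to 11.9%). Neuronal genes had 4 of 29 (13.8%, 3.89 to 31.7), among them Syt1, a calcium sensor gene of synaptic vesicles (155), and muscle genes 3 of 28 (10.7%, 2.27 to 28.2), among them Actn2 (145). Olfactory receptors had 6 of 1104 (0.543%) and vomeronasal receptors 3 of 354 (0.847%, 0.175 to 2.46), led by Vmn2r29 (154). Cytochrome P450 genes had 6 of 97 (6.19%), led by Cyp46a1, a cholesterol hydroxylase gene (149), serpins 3 of 62 (4.84%), beta-defensins 1 of 42 (2.38%) and keratin genes with others named alike 3 of 112 (2.68%). The strongest of the last group was Krtcap3 (111), which encodes no keratin. Interleukins and their receptors had 11 of 78 (14.1%, 7.26 to 23.8). Promoters of most of these groups were poor in CpG, with a median ratio of 0.22 for liver and immune cell genes and 0.11 for olfactory receptors, against 0.58 for all.

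Developmental regulators were also seldom used. Hox genes, which pattern the body axis, had 2 of 39 (5.13%, 0.627 to 17.3), namely Hoxa4 (194) and Hoxd8 (127). The homeobox genes of the Nkx, Lhx, Dlx, Irx, Pax and sine oculis families had 2 of 49 (4.08%, 0.498 to 14.0), namely Nkx2-9 (92) and Lhx2 (78). In the upper 2 quintiles of CpG ratio lay 7 promoters of the first group and 11 of the second, and 0 of either had a gene-end hotspot at the start, against 47.5% of all such starts. Collagen genes had 2 of 42 (4.76%), voltage-gated potassium channels 1 of 29 (3.45%) and protocadherins 1 of 67 (1.49%). The potassium channel gene was Kcnc2 (34), whose hotspot was nearest its 3′ end.

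For 6 further families the exact interval included the background. The Zfp zinc finger genes had 106 of 388 (27.3%, 22.9 to 32.0) with a median strength of 76.5, led by Zfp78 and followed by Zfp91 (547) and Zfp521 (534). Solute carriers had 104 of 362 (28.7%, 24.1 to 33.7), coiled-coil proteins named Ccdc 36 of 134 (26.9%), F-box proteins 26 of 78 (33.3%), with Fbxo30 at 463, DNAJ co-chaperones 15 of 45 (33.3%) and TRIM proteins 14 of 68 (20.6%), with Trim28, a co-repressor gene, at 255.

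Few gene-end hotspots lay within 10 kb of each other, but they were closer together than other hotspots were to them. The median distance from a centre to the next gene-end hotspot was 89346 bp (85222 to 92746). It was 197166 bp (188312 to 208074) from other knockout-only hotspots and 231905 bp (222449 to 240766) from shared hotspots. By the rule, gene-end hotspots lie at gene ends and other knockout-only hotspots away from them. How much of this difference follows from that choice and from the spacing of genes was not tested. Of the 4550, 2 were within 5 kb of another, 98 (2.15%) within 10 kb and 1363 (30.0%, 28.6 to 31.3) within 50 kb. The closest pair was at Slc11a1 (strength 289) and Ctdsp1 (244) on chromosome 1, with centres 4828 bp apart, followed by Sh3glb2 and Miga2 on chromosome 2 (5195 bp) and Rtca and Dbt on chromosome 3 (5208 bp). No hotspot of any kind in the knockout list was nearer than 1877 bp to a gene-end hotspot, and the median distance to the nearest was 33938.5 bp (32684 to 35222).

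With neighbours under 50 kb apart joined, 591 runs held 1363 hotspots and 3187 hotspots stood alone. Of the runs, 9 had 5 or more members. The longest, with 7, lay on chromosome 5 from 145083158 to 145281385. It began at Arpc1a and Arpc1b, genes of the actin-nucleating ARP2/3 complex (strengths 93 and 71). Then came the divergent starts of Pdap1 and Bud31 (66) and of Cpsf4, a polyadenylation factor gene, and Ptcd1 (61). The run ended with Atp5j2, an ATP synthase subunit gene (36), Zfp655 (89) and Zscan25 (51). All 7 were nearest a start.

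Use per gene varied among chromosomes. The share of protein-coding genes with a gene-end hotspot was highest on chromosome 12 (35.3%), chromosome 18 (34.1%) and chromosome 11 (31.3%) and lowest on chromosome 7 (18.1%) and chromosome 6 (18.4%). Chromosome 7 carries 417 olfactory and vomeronasal receptor genes, and without receptor genes its share was 22.7%. Chromosome 6 then had the lowest share, 19.8%, and chromosome 12, with 0 receptor genes, still the highest.

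Gene-end hotspots lay somewhat nearer to wild type hotspots than other knockout-only hotspots did. The median distance was 54729.5 bp (52265 to 56793) against 64743 bp (62506 to 67140), and 2123 of 4550 (46.7%, 45.2 to 48.1) against 2098 of 5138 (40.8%, 39.5 to 42.2) lay within 50 kb of a wild type hotspot. Within 5 kb the shares were 1.71% (1.36 to 2.13) and 1.40% (1.10 to 1.76), whose intervals overlap.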

How the data were processed

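Single-stranded DNA bound by DMC1 was sequenced from whole testis, and 1 hotspot list per genotype was analysed. Per the submitters' processing notes, CASAVA, Bowtie2, BWA and MACS2 were used with mm10, and their roles and versions are not given in the sources used here. Per the file headers, each deposited row gives a count of signal reads, a background estimate, a strength signal that equals reads minus background in the values, that strength as a percent of its list and a rank score. No scaling between the lists is visible, so strengths were compared within the knockout list, except where the wild type median is named. Intervals were used as deposited.

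The lists were joined with RefSeq GRCm38 genes by coordinates in Python 3.11.15 (numpy 2.4.6, pandas 2.3.3, scipy 1.17.1, matplotlib 3.10.9). Strand came from a RefSeq promoter table that holds 16456 of 20661 autosomal protein-coding genes (79.6%) and was not used on chromosome 18. Promoter letters were read for 13555 genes whose table start lay within 250 bp of the gene start. Shares have exact Clopper-Pearson 95% intervals and medians have exact order-statistic intervals. Both cover counting over hotspots or genes, which are not replicates, and reads without molecular identifiers are not independent molecules. With 1 list per genotype no p-value was computed. The joins were tested on simulated data.

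The hotspots, the 39 gene groups and the 12 motifs were chosen with earlier results of these data known. The groups were defined by symbol, and 1 of them, the replication-dependent histones, matched no symbol of the table. The genes named are the strongest, weakest, widest and narrowest hotspots, the strongest pairs and 3′ ends, genes used at both ends, the closest pairs, the longest run, up to 4 of the strongest per gene group, and those beside the 1 kb limit. Some items that this rule names are not reported here. Alternatives were other windows, edge distance, a strength minimum, a wider definition of shared hotspots and curated genes.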

Additional observations from a re-analysis of the deposited data

How the results depend on the processing

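Of 36 values recomputed for 6 results under 6 alternatives, 22 stayed and 14 moved. Only the strength difference has a direction, and it kept that direction under all 6. To stay, a median or share had to fall within the 95% interval of its main value. The number of hotspots had to stay within a set fold, and the strength difference within its standard deviation over chromosomes. With only hotspots at or above the median strength of the knockout list, 1820 gene-end hotspots were left, by construction, with a median strength of 160, 98.6% at starts and 9.98% of genes used, and the difference from other knockout-only hotspots was 0.17 on the log2 scale. A window of 500 bp gave 11.2% with ends of 2 or more genes, 98.4% at starts and 22.2% of genes used. A window of 2 kb gave 16.2%, 95.5% and 27.1%, and distances from the nearest edge gave 15.8%, 95.9% and 26.9%, where more ends are reached by construction. A wild type hotspot within 1 kb counted as shared, and curated genes alone, an alternative chosen after seeing the data, moved none of the 6 results. No paired analysis was possible because the lists have no values per animal, and leaving out a replicate was not possible for the same reason. Hotspots near the weakest called strength, 16 among gene-end hotspots, limit what can be read from absence in the wild type list.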

Other observations

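Some knockout-only hotspots outside the gene-end class also lay at annotated starts. With chromosome 18 left out, 771 of the 4880 other knockout-only hotspots (15.8%, exact 95% interval 14.8 to 16.9) were within 1 kb of a start of the promoter table, and 530 of them were at a protein-coding start inside a gene. Their median strength was 85 and their median width 1722 bp, against 61 and 1512 bp for the 4109 with no such start. Among shared autosomal hotspots, 215 of 10355 (2.08%, 1.81 to 2.37) lay within 1 kb of a table start. Genes with a curated transcript had a gene-end hotspot in 5079 of 20044 cases (25.3%), and genes without one in 50 of 617 (8.10%, 6.07 to 10.5).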
